A study of Mus musculus with 18 samples.

Results

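The 32 genes described here have been reported as targets of miR-155 in earlier work, and their transcripts were followed in T cells of mouse melanomas with and without that microRNA. The genes were taken from a named list, with Socs1 and Ifngr1 left out of it, and matched by symbol among 49671 gene models. All 32 were found in each of the 18 libraries' count files and passed the filter on low counts that left 14080 tested genes. The list of symbols came from reports on other data and was settled on with earlier results of these data known.

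The libraries came from CD8+ and CD4+ T cells that were flow sorted after 12 days from subcutaneous tumors of B6 mice; the tumor line, B16f10-OVA, is a melanoma with ovalbumin as a model antigen. The 6 groups of 3 libraries were, for each cell type, treated deficient, deficient and floxed. Treated deficient mice carried a floxed miR-155 gene and Cre under the CD4 promoter, and on days 3, 6 and 9 were given blocking antibodies to CTLA-4 and to PD-1/PD-L1, as the labels put it (the blockade). Deficient mice had the same alleles and no antibodies. Floxed mice had the floxed gene without Cre and no antibodies, so the floxed allele was shared by all 6 groups. The CD4 promoter is active through the T cell lineage, so both CD8 and CD4 cells are targets of this deletion. Each library pooled cells of 2 to 3 tumors grown on individual mice, and the age of the mice is not given in the labels. No comparison with antibody-treated floxed mice was made here, and the blockade was assessed within deficient cells. Whether the CD8 and CD4 pools, or pools of separate groups, drew on the same animals is not stated in the labels, and p-values measure the spread between these pools.

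Library totals ran from 3.2 to 11.65 M (mega) counts. Levels are given in CPM (counts per M counts), scaled with TMM factors, and 3 counts correspond to between 0.258 and 1.24 CPM, depending on the library. Mir155hg, from which miR-155 is cut, had 0.345, 0.414 and 0.524 CPM in treated deficient CD8 cells, 0.236, 0.894 and 1.90 CPM in deficient CD8 cells and 20.5, 19.2 and 9.08 CPM in floxed CD8 cells. In CD4 cells it had 0.0873, 0 and 0.191 CPM in the treated deficient group, 0.649, 0 and 0.566 CPM in the deficient group and 4.88, 8.24 and 6.72 CPM in the floxed group. Every deficient library therefore lay below every floxed library of its cell type. The separate gene model of the precursor was empty (0 counts) in each of the 18, and the mature microRNA was not measured. Cd4, the CD4 co-receptor, was at 0 to 3.14 CPM in CD8 libraries and 233 to 1090 CPM in CD4 libraries. Cd8a, the CD8 co-receptor, had 976, 978 and 1170 CPM in treated deficient CD8 cells. It had 691, 728 and 624 CPM in deficient and 1320, 1450 and 1140 CPM in floxed CD8 cells. In CD4 libraries it had 0.136 to 17.5 CPM in the 6 of the deficient groups and 14.6, 150 and 142 CPM in the floxed group. Between 4.68% and 25.3% of counts fell on ribosomal-like models in floxed CD8 replicate 1, treated deficient CD8 replicate 2 and deficient CD4 replicate 3, against at most 3.28% in the other 15.

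MicroRNAs are short RNAs that guide Argonaute proteins to messenger RNAs, mostly through pairing between the seed at the microRNA's 5' end and matching letters in a 3' untranslated region (UTR). Paired messages are translated less and often decay faster, so the textbook expectation for a target is more transcript when its microRNA is lost. MiR-155 is made by activated lymphocytes and myeloid cells, and in T cells it is known for its part in effector responses against tumors and viruses. Its reported targets include phosphatases and ligases that restrain signalling, transcription factors and chromatin proteins.

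The mature sequence and the sites of the members on which the results turn are shown first, since the seed match is the feature that these genes were reported for. The seed of miR-155-5p (bases 2 to 8, in capitals) was read from the RefSeq table of GRCm38.p6, where the mature strand lies at chr16:84714143-84714165 on the plus strand. The longest annotated 3' UTR of each gene (GENCODE M21, GRCm38) was searched on the transcript's own strand for AGCATTAA (an 8mer, which pairs with bases 2 to 8 and has an A opposite base 1), for AGCATTA (7mer-m8) and for GCATTAA (7mer-A1). An 8mer was counted as an 8mer and not again as a 7mer. In the 30-base stretches below, the capitals mark the match. The Inpp5d stretch is shown because this gene is a widely cited target. Those of Ikbke, Bach1, Cebpb, Zfp652, Trp53inp1, Picalm and Sdcbp belong to members that rose in deficient CD8 cells, and that of Hif1a to the member that rose in deficient CD4 cells. They lie at chr1:87719816-87719845 (Inpp5d, plus strand), chr1:131255152-131255181 (Ikbke, minus strand), chr16:87732166-87732195 (Bach1, plus), chr2:167690344-167690373 (Cebpb, plus), chr11:95764397-95764426 (Zfp652, plus), chr4:11170407-11170436 (Trp53inp1, plus), chr7:90208410-90208439 (Picalm, plus), chr4:6395050-6395079 (Sdcbp, plus) and chr12:73946717-73946746 (Hif1a, plus), all in 3' UTR exons.
miR-155-5p: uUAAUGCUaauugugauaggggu
Inpp5d: gggtcctgagatgtttttaaaaAGCATTAA
Bach1: aatttctctctatgaacagtttAGCATTAA
Cebpb: tttgagaaccttttccgtttcgAGCATTAA
Zfp652: gaaggctgtgaggttagtccagAGCATTAA
Trp53inp1: agtacatttttacactaacacaAGCATTAA
Ikbke: attggccattggccaacaaactAGCATTAc
Picalm: aaaagcactacatttaaaactcAGCATTAg
Sdcbp: aacactgttttcattccacaaaAGCATTAc
Hif1a: tcaataagtgagtaattttagaAGCATTAt

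At least 1 match was present in 27 of the 32 members (84.4%), against 1711 of the 12108 tested genes with an annotated 3' UTR (14.1%). An 8mer was present in 15 members (46.9%), against 408 of those genes (3.37%). The median 3' UTR was longer among members, at 1894 bases, than among all those genes, at 1179 bases. Fadd, Gna13, Maf, Myd88 and Smad2 had no match in this window, which says only that these letters are not in it. Bach1, Jarid2, Picalm, Tshz3, Tspan14 and Zfp652 each had more than 1 match. The Ripk1 match at chr13:34036483-34036489 lies beyond the end of the gene model that was counted, at base 34035170.

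In CD8 cells, 9 of the 32 members were higher in deficient than in floxed cells and 1 was lower. The 9 were Maf, Trp53inp1, Bach1, Cebpb, Ikbke, Sdcbp, Zfp652, Gna13 and Picalm, with log2 fold changes between 0.41 and 1.67, and Ptprj fell. Of all tested genes, 9.65% were called higher and 9.61% lower in the same comparison (edgeR's quasi-likelihood test, Benjamini-Hochberg adjusted p under 0.05 over all 14080 genes). The members' median log2 fold change was 0.11, against -0.01 over all tested genes, and 22 of the 32 values were above 0. The other 22 members were not called in either direction. All deficient libraries lay above all floxed ones for 9 members (17.8% of tested genes) and below them for 3 (16.4%). In bulk libraries, fewer cells of a type and less RNA per cell cannot be told apart.

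In CD4 cells, in contrast, 1 member, Hif1a, was higher in deficient than in floxed cells and 6 were lower. The 6 were Ptprj, Cebpb, Bach1, Sdcbp, Myd88 and Maf, with log2 fold changes between -1.37 and -0.54. Among all tested genes 4.61% were called higher and 7.06% lower. The median of the members was -0.01, against 0.01 over all tested genes. Libraries did not overlap for 5 members that were higher (13.2% of tested genes) and 11 that were lower (14.7%). Maf, Bach1, Cebpb and Sdcbp were called in opposite directions in the 2 cell types, Ptprj was called lower in both, and 0 members were called higher in both. Shares of all tested genes with such pairs of calls were not computed.

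**Figure D1:**
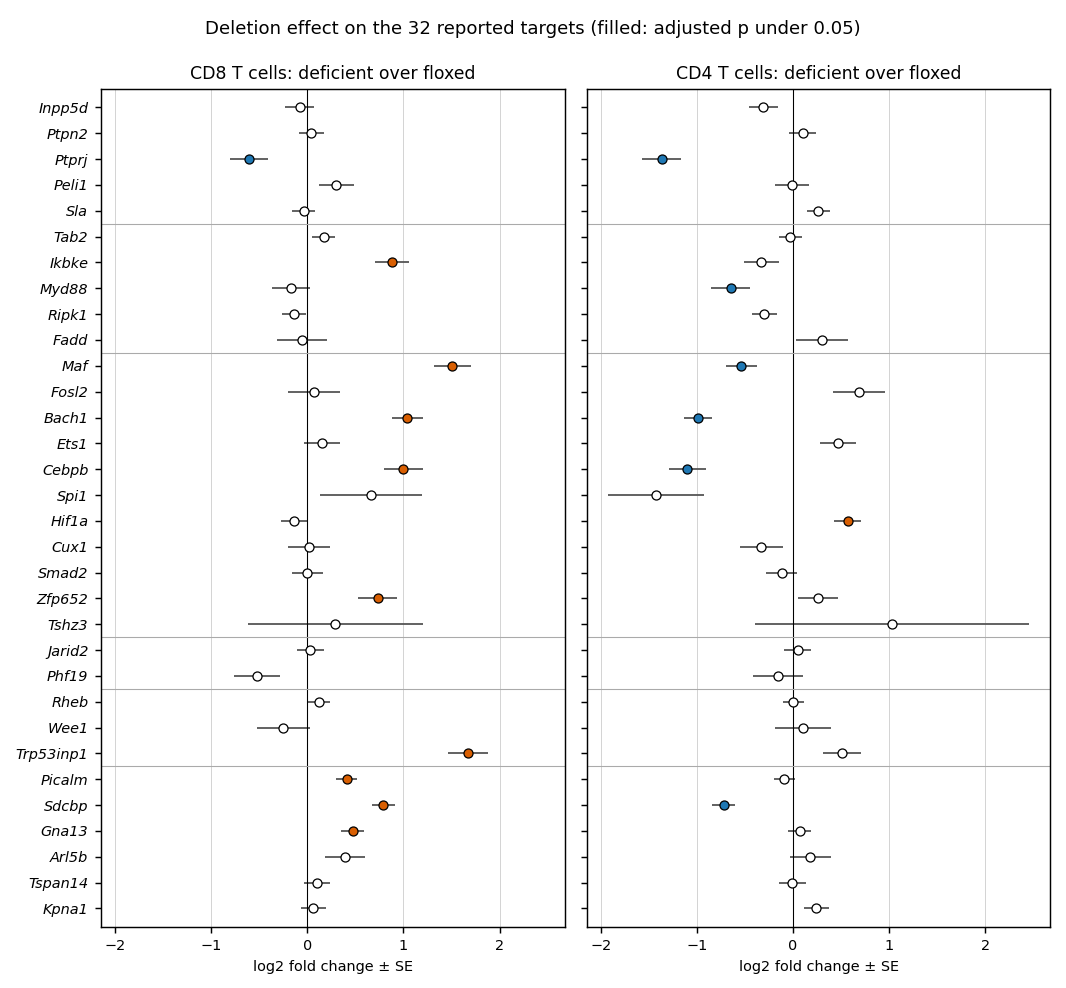
Log2 fold change of deficient over floxed cells (points, with SE as bars; 3 libraries a group) for the 32 members, CD8 cells on the left and CD4 cells on the right; grey lines part the members by role, and filled points had an adjusted p under 0.05. Maf, Bach1, Cebpb and Sdcbp lie right of 0 in CD8 cells and left of 0 in CD4 cells, and Inpp5d at the top is open in both panels.

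Markers of other cell types moved with these comparisons. The summed macrophage and monocyte list ran from 1461 to 2873 CPM in deficient CD8 libraries against 608.5 to 1950 CPM in floxed ones, with 8 of its 15 genes called higher and 0 lower. In CD4 libraries the same sum ran from 3084 to 4603 CPM in the deficient and from 11980 to 25660 CPM in the floxed group, and 13 of the 15 genes were called lower. The summed melanoma list ran from 1379 to 3148 CPM in deficient and from 156.1 to 198 CPM in floxed CD8 libraries, with 10 of 10 genes called higher. In CD4 libraries it ran from 1841 to 4361 CPM in the deficient and from 159.8 to 662.3 CPM in the floxed group, with 7 of 10 called higher. In treated deficient libraries the macrophage sums were 469.9 to 735.4 CPM in CD8 and 2809 to 4526 CPM in CD4 cells, and the melanoma sums 361.4 to 1713 and 447.9 to 2002 CPM. The summed dendritic cell and antigen presentation list ran from 681.5 to 1317 CPM in deficient and from 293.6 to 356.6 CPM in floxed CD8 libraries (3 of 9 genes called higher), and from 2807 to 4384 CPM in deficient and from 6307 to 14710 CPM in floxed CD4 libraries (3 of 9 called lower). The summed pan T list ran from 1856 to 1909 CPM in deficient and from 2372 to 2971 CPM in floxed CD8 libraries, with 3 of 6 genes called lower. No defining marker of macrophages or of melanoma was at 0 in any library. Macrophage genes were thus called higher in the CD8 deletion and lower in the CD4 deletion, as were Maf, Bach1, Cebpb and Sdcbp. The part of these markers in those results was not tested beyond the fit with the macrophage and melanoma sums given below.

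**Figure D2:**
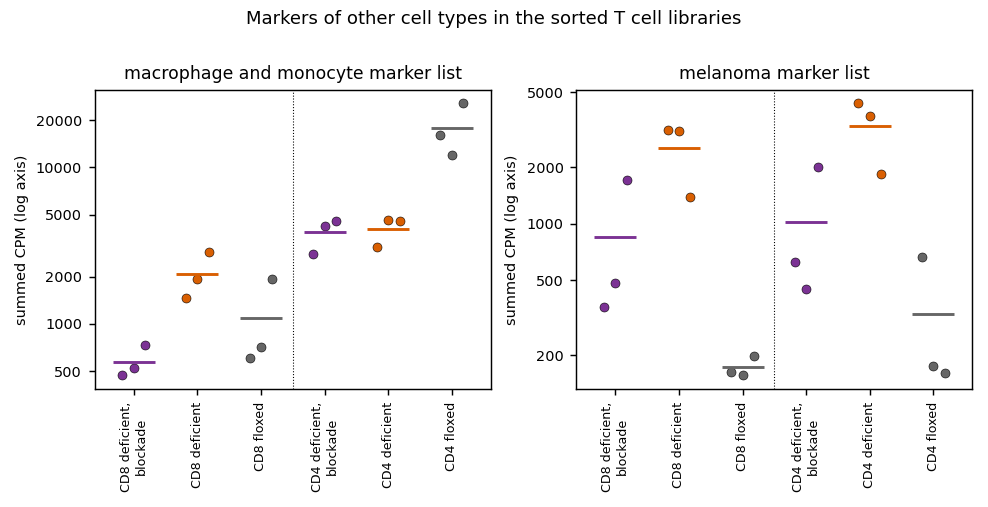
Summed CPM (log axis) of the macrophage and monocyte list (15 genes) and of the melanoma list (10 genes) in each of the 18 libraries, by group; points are libraries and bars are means. Floxed CD4 libraries hold the highest macrophage sums, 11980 to 25660 CPM, and the deficient groups without antibodies hold the highest mean melanoma sum of each cell type.

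With the log2 sums of both marker lists added to the fit, 2 members were called higher in the CD8 deletion and 0 lower, in a fit that called 0.582% of all tested genes higher and 0.320% lower. These were Trp53inp1 (log2 fold change 1.52, edgeR adjusted p = 0.00409) and Bach1 (1.15, adjusted p = 0.0372). At an unadjusted p under 0.05 they were 8 higher and 1 lower. Shares of all tested genes at an unadjusted p were not computed, here or below. Maf had 1.15 (adjusted p = 0.0982), against 1.51 without these terms. Ikbke had 1.00 (adjusted p = 0.181) and Gna13 0.65 (adjusted p = 0.104). Picalm had 0.63 (adjusted p = 0.153), Sdcbp 0.55 (adjusted p = 0.324) and Zfp652 0.56 (adjusted p = 0.651). Cebpb had 0.39 (adjusted p = 0.752), less than under the fit without these terms. In the CD4 deletion 0 members were called with these terms by edgeR, and 2 were higher and 6 lower at an unadjusted p under 0.05. That fit called 0.00710% of all tested genes higher and 0.0213% lower, so the count of 0 says nothing particular to the members. There Maf had -0.79 (adjusted p = 0.509), Sdcbp -0.58 (adjusted p = 0.504), Cebpb had -0.98 (adjusted p = 0.453), Bach1 -0.25 (adjusted p = 0.866) and Hif1a 0.17 (adjusted p = 0.91). The melanoma sums did not overlap between deficient and floxed libraries in either cell type, and in CD4 cells neither did the macrophage sums. The melanoma term and the deletion thus cannot be fully told apart, nor can the macrophage term and the CD4 deletion.

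The first group of members restrains signalling from the antigen and cytokine receptors. Inpp5d encodes SHIP1, a lipid phosphatase that removes the product of PI3 kinase. It had 177, 206 and 192 CPM in deficient CD8 cells, against 275, 158 and 176 CPM in floxed CD8 cells. The floxed libraries lay on both sides of the deficient ones, and the log2 fold change was -0.08 ± 0.15 (SE; 95% interval -0.39 to 0.23; adjusted p = 0.77). In CD4 cells Inpp5d had 262, 289 and 277 CPM in the deficient group, against 322, 351 and 355 CPM in the floxed group. All 3 deficient CD4 libraries were lower, yet the value of -0.31 ± 0.15 did not pass (adjusted p = 0.201). Without floxed CD8 replicate 1 that CD4 value was -0.33 with an adjusted p of 0.0285.

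Ptprj, the receptor tyrosine phosphatase CD148, was the member that fell in both cell types. It had 42.2, 59.8 and 68.5 CPM in deficient CD8 cells, against 101, 76.2 and 83.7 CPM in floxed CD8 cells (log2 fold change -0.61 ± 0.20, adjusted p = 0.0345). In CD4 cells it had 113, 95.9 and 117 CPM in the deficient group, against 236, 231 and 374 CPM in the floxed group (-1.37 ± 0.20, adjusted p = 0.000231). The libraries of the groups did not overlap in either cell type. The CD8 call was lost without any of floxed CD8 replicates 1 and 3 and deficient CD8 replicates 1 and 2 (adjusted p 0.0563 to 0.178). Ptpn2, a phosphatase that acts on JAK and STAT proteins, had values of 0.04 ± 0.13 in CD8 and 0.10 ± 0.14 in CD4 cells, and Sla, an adaptor that lowers T cell receptor signalling, had -0.04 ± 0.12 and 0.26 ± 0.12. None of these 4 values passed.

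Peli1, a ubiquitin ligase that dampens T cell activation, had 205, 174 and 151 CPM in deficient CD8 cells, against 201, 126 and 102 CPM in floxed CD8 cells. Floxed replicate 1 was close to the highest deficient library and the value of 0.30 ± 0.18 did not pass (adjusted p = 0.263). The same library stood apart for other members: without it, Peli1 (0.61, adjusted p = 0.00501), the transcription factor gene Fosl2 (0.63, adjusted p = 0.00856) and the small GTPase gene Arl5b (0.66, adjusted p = 0.0279) were called higher in the CD8 deletion, which brought the count to 12 (7.78% of all tested genes were called higher there). This library was among the 3 with a high ribosomal-like share, and without all 3 of them the count was also 12, where 7.55% of all tested genes were called higher.

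The second group signals from innate and death receptors. Ikbke encodes IKK-epsilon, a kinase of the interferon and NF-kB pathways. It had 117, 116 and 94.7 CPM in deficient CD8 cells, against 81.5, 47.3 and 49.3 CPM in floxed CD8 cells, with no overlap (log2 fold change 0.88 ± 0.18, adjusted p = 0.00168). In CD4 cells it had 101, 109 and 103 CPM in the deficient group, against 137, 110 and 148 CPM in the floxed group, and this difference of -0.33 ± 0.18 did not pass (adjusted p = 0.258). Myd88, the adaptor of Toll-like and interleukin-1 receptors, had 65.1, 86.8 and 79.7 CPM in deficient CD4 cells, against 122, 86.7 and 154 CPM in floxed CD4 cells. It fell by 0.65 ± 0.20 on the log2 scale (adjusted p = 0.0416), although deficient replicate 2 was level with floxed replicate 2. The Myd88 call was lost in 10 of 28 other settings, among them without any of floxed CD4 replicates 1 and 3 and of the 3 deficient CD4 libraries (adjusted p 0.0518 to 0.234) and without treated deficient CD8 replicate 2 (adjusted p = 0.0536). With the marker terms its value turned to 0.29 (adjusted p = 0.884). Tab2, an adaptor of the kinase TAK1, Ripk1, a kinase at death receptors, and Fadd, their adaptor, ran from -0.14 to 0.17 in CD8 and from -0.30 to 0.30 in CD4 cells, and none passed. For Ripk1, 34.3% of the exon length is shared with another gene on the same strand, so its count is uncertain.

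Transcription factors made up the largest group of members, with 11 genes, of which 4 rose in deficient CD8 cells. Maf encodes c-Maf, a factor of helper T cells and macrophages. It had 15.7, 25.8 and 21.3 CPM in deficient CD8 cells, against 8.13, 8.23 and 5.16 CPM in floxed CD8 cells (log2 fold change 1.51 ± 0.19, adjusted p = 2.2e-05). In CD4 cells its levels were far higher, at 234, 279 and 244 CPM in the deficient group, against 402, 330 and 370 CPM in the floxed group (-0.54 ± 0.16, adjusted p = 0.0272). The groups did not overlap in either cell type. The CD4 call was lost without any of floxed CD4 replicates 1 and 3 and deficient CD4 replicates 1 and 3 (adjusted p 0.0521 to 0.103).

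Bach1 encodes a repressor of heme and antioxidant genes and had both an 8mer and a 7mer-m8 match. It had 54.7, 63.5 and 74.6 CPM in deficient CD8 cells, against 29.2, 32.4 and 32.2 CPM in floxed CD8 cells (log2 fold change 1.04 ± 0.16, adjusted p = 0.000125). In CD4 cells it had 85.4, 94.5 and 92.7 CPM in the deficient group, against 140, 180 and 222 CPM in the floxed group (-0.99 ± 0.15, adjusted p = 0.000386). The lowest deficient CD8 library was well above the highest floxed one, and in CD4 cells the order was turned round. The CD8 call of Bach1 was kept in all 28 other settings tried, with values from 0.90 to 1.15.

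Cebpb, a factor of myeloid cells and inflammation, had 56.0, 53.5 and 55.5 CPM in deficient CD8 cells, against 32.6, 25.1 and 24.7 CPM in floxed CD8 cells (log2 fold change 1.00 ± 0.20, adjusted p = 0.00157). It had 128, 164 and 121 CPM in deficient CD4 cells, against 274, 232 and 380 CPM in floxed CD4 cells (-1.10 ± 0.19, adjusted p = 0.000957). The groups were apart in both. Spi1, which encodes the myeloid and B cell factor PU.1, had 16.3, 20.9 and 38.7 CPM in deficient CD8 cells, against 9.12, 7.15 and 33.1 CPM in floxed CD8 cells. Its value of 0.66 ± 0.53 did not pass (adjusted p = 0.443), with replicate 3 high in both groups; the macrophage sum was also highest in those libraries, at 2873 CPM in deficient and 1950 CPM in floxed replicate 3. Without floxed CD8 replicate 3 the value was 1.64 with an adjusted p of 0.0195. In CD4 cells Spi1 had 38.6, 54.3 and 71.3 CPM in the deficient group, against 122, 112 and 205 CPM in the floxed group (-1.43 ± 0.50, adjusted p = 0.0856), and 6 other settings brought this below 0.05, with adjusted p-values from 2.59e-11 with no filter to 0.0131 with the replicate number in the fit.

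Zfp652, which encodes a zinc finger protein, had 89.6, 78.2 and 84.2 CPM in deficient CD8 cells, against 70.4, 38.2 and 43.6 CPM in floxed CD8 cells (log2 fold change 0.73 ± 0.20, adjusted p = 0.015). The call was lost without floxed CD8 replicate 2 (0.54, adjusted p = 0.0852), without floxed CD8 replicate 3 (0.64, adjusted p = 0.0515) and without deficient CD8 replicate 1 (0.67, adjusted p = 0.066). Of its exon length, 11.8% is shared with another gene on the same strand. Hif1a, the oxygen-regulated factor of glycolysis genes, had 516, 517 and 507 CPM in deficient CD8 cells, against 574, 633 and 495 CPM in floxed CD8 cells, a value of -0.14 ± 0.14 that did not pass (adjusted p = 0.531). In CD4 cells it had 1690, 1770 and 1860 CPM in the deficient group, against 1420, 1250 and 922 CPM in the floxed group (0.57 ± 0.14, adjusted p = 0.0115). All 3 deficient CD4 libraries were above all 3 floxed ones, and without floxed CD4 replicate 3, the lowest, the value was 0.40 (adjusted p = 0.0867).

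Of the other transcription factors, Fosl2 (the AP-1 subunit Fra-2) had 229, 202 and 189 CPM in deficient CD4 cells, against 141, 121 and 123 CPM in floxed CD4 cells. The groups did not overlap, but the value of 0.69 ± 0.27 did not pass (adjusted p = 0.117), and it passed in 5 other settings, among them CD4 libraries fitted alone (adjusted p = 0.00999) and the fit without floxed CD8 replicate 1 (adjusted p = 0.0029). Fosl2 in floxed CD8 cells was at 206, 79.6 and 87.2 CPM, so replicate 1 lay far above the other two. Ets1, a factor of T cell development, had a value of 0.47 ± 0.19 in CD4 cells (adjusted p = 0.117), and without floxed CD4 replicate 2 it was 0.66 (adjusted p = 0.0261). Cux1, a homeobox factor, and Smad2, a messenger of TGF-beta, ran from -0.33 to 0.02 over both cell types and did not pass. Tshz3, a zinc finger homeobox gene, was at 0 to 8.37 CPM over the 18 libraries, and its SE of 0.91 in CD8 and 1.43 in CD4 cells leaves changes of several-fold undetectable at this depth.

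The chromatin and growth genes gave 1 call. Jarid2 and Phf19 encode partners of the Polycomb complex PRC2, Rheb a GTPase that switches on mTORC1 and Wee1 a kinase that holds back mitosis. In the CD8 deletion their values were 0.03 ± 0.14, -0.53 ± 0.24, 0.12 ± 0.11 and -0.25 ± 0.28, and none passed. Phf19 had 18.7, 23.1 and 23.8 CPM in deficient CD8 cells, against 30.5, 32.9 and 31.5 CPM in floxed CD8 cells; the groups were apart, and limma voom called it (adjusted p = 0.035) where edgeR did not (adjusted p = 0.133). Trp53inp1, a p53-induced stress protein, had the largest change of the 32 in this comparison. It had 382, 317 and 294 CPM in deficient CD8 cells, against 114, 126 and 71.2 CPM in floxed CD8 cells (log2 fold change 1.67 ± 0.21, adjusted p = 3.85e-05). No deficient library came near the highest floxed one, and the call was kept in all 28 other settings, with values from 1.47 to 1.82. In CD4 cells Trp53inp1 had 639, 512 and 587 CPM in the deficient group, against 468, 467 and 282 CPM in the floxed group, apart but not called (0.51 ± 0.20, adjusted p = 0.121).

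The last group holds membrane, trafficking and transport proteins. Sdcbp encodes syntenin-1, a PDZ adaptor of membrane proteins. It had 431, 431 and 400 CPM in deficient CD8 cells, against 222, 265 and 244 CPM in floxed CD8 cells (log2 fold change 0.79 ± 0.12, adjusted p = 0.000155). In CD4 cells it had 654, 707 and 704 CPM in the deficient group, against 1140, 936 and 1320 CPM in the floxed group (-0.72 ± 0.12, adjusted p = 0.000769). The groups were apart in both cell types, in opposite order. Picalm, an adaptor of clathrin in endocytosis, had 553, 582 and 557 CPM in deficient CD8 cells, against 471, 456 and 343 CPM in floxed CD8 cells (0.41 ± 0.11, adjusted p = 0.0132). Without floxed CD8 replicate 3, the lowest, the value was 0.29 (adjusted p = 0.0577). Gna13, the alpha subunit of the G protein G13, had 356, 332 and 323 CPM in deficient CD8 cells, against 287, 230 and 211 CPM in floxed CD8 cells (0.47 ± 0.12, adjusted p = 0.00751). In CD4 cells the values of Picalm and Gna13 were -0.09 ± 0.11 and 0.07 ± 0.12. Arl5b, the tetraspanin gene Tspan14 and the nuclear import gene Kpna1 ran from 0.06 to 0.39 in CD8 and from -0.01 to 0.24 in CD4 cells, and none passed.

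**Figure D3:**
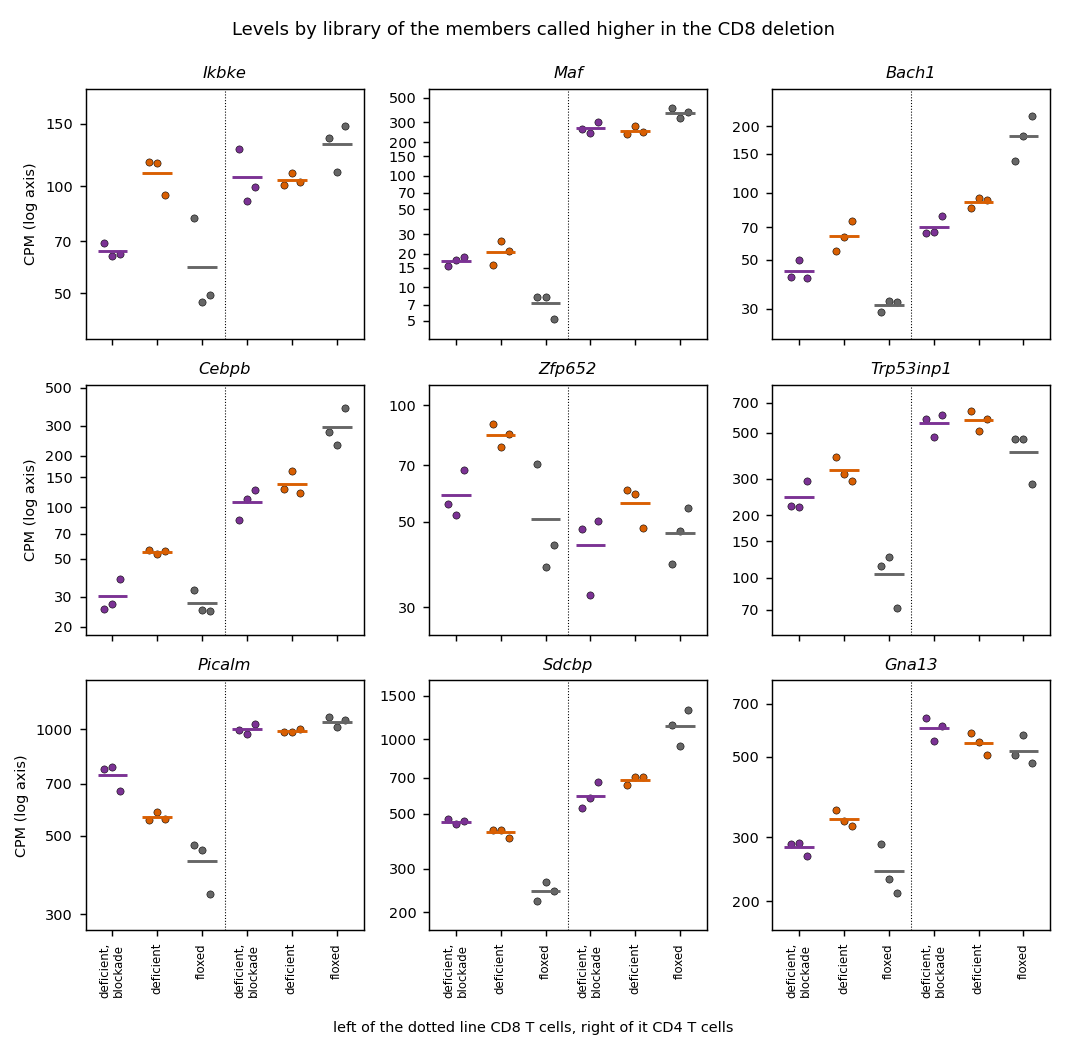
CPM (log axes, a scale of its own for each gene) of the 9 members called higher in the CD8 deletion in each of the 18 libraries; points are libraries, bars are means, and the groups run from treated deficient through deficient to floxed in CD8 and then in CD4 cells. In CD8 cells each deficient library lies above each floxed one for all 9 genes, while Maf, Bach1, Cebpb and Sdcbp in CD4 cells are highest in the floxed group.

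The difference between the cell types was tested as a contrast of the deletion effect in CD8 minus that in CD4 cells. Of the 32 members, 7 were called higher in this contrast (6.89% of all tested genes) and 1 lower (4.72%). The differences on the log2 scale were 2.10 ± 0.28 for Cebpb (adjusted p = 9.34e-05), 2.06 ± 0.25 for Maf (adjusted p = 2.82e-05), 2.03 ± 0.22 for Bach1 (adjusted p = 1.41e-05) and 1.51 ± 0.17 for Sdcbp (adjusted p = 1.95e-05). Ikbke followed with 1.21 ± 0.25 (adjusted p = 0.00288), Trp53inp1 with 1.16 ± 0.29 (adjusted p = 0.0136) and Picalm with 0.50 ± 0.16 (adjusted p = 0.0431). Hif1a had -0.71 ± 0.20 (adjusted p = 0.0228). For Gna13 and Zfp652, called in the CD8 deletion and not in the CD4 deletion, the difference did not pass (0.40 ± 0.17, adjusted p = 0.133, and 0.47 ± 0.29, adjusted p = 0.357). The Picalm call was lost in 12 of 28 other settings, among them all 3 deficient CD8 libraries left out in turn. The Hif1a call was lost without any of floxed CD8 replicate 2, deficient CD8 replicate 2, floxed CD4 replicate 3 and deficient CD4 replicate 3 (adjusted p 0.0518 to 0.0614).

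The blockade was compared within deficient cells. In CD8 cells 2 of the 32 members were higher in treated deficient than in deficient cells and 5 were lower, where 8.25% of all tested genes were called higher and 5.53% lower. Bach1, Cebpb and Ikbke, which had risen with the deletion, fell with the blockade, and so did Spi1 and Cux1. The deletion and the blockade comparison share the 3 deficient CD8 libraries, so they are not independent, and 2.89% of all tested genes were called higher in the one and lower in the other. Hif1a and Picalm rose. The members' median was 0.06, against -0.03 over all tested genes. The macrophage list fell in this comparison as well, with 12 of 15 genes called lower. With the marker terms none of these members kept its call (edgeR adjusted p from 0.0871 for Ikbke to 0.842 for Picalm). Trp53inp1 was called lower there (-0.87, adjusted p = 0.0401). That fit called 0.874% of all tested genes higher and 0.973% lower. The macrophage sums of treated deficient and deficient CD8 libraries did not overlap, so the macrophage term and the blockade cannot be fully told apart. The part of the macrophage list in the result was not tested further.

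Bach1 had 42.0, 49.7 and 41.3 CPM in treated deficient CD8 cells, below all 3 deficient libraries and above all 3 floxed ones (treated against deficient, -0.55 ± 0.16, adjusted p = 0.0241). Cebpb had 25.2, 27.3 and 38.2 CPM in treated deficient CD8 cells (-0.85 ± 0.20, adjusted p = 0.00742), and Ikbke had 69.3, 63.7 and 64.4 CPM (-0.73 ± 0.18, adjusted p = 0.00946). For both genes the treated libraries overlapped the floxed ones. The Bach1 call was lost without any of deficient CD8 replicates 2 and 3 and treated deficient CD8 replicates 1 and 3 (adjusted p 0.0521 to 0.164), and that of Cebpb without treated deficient CD8 replicate 1 (adjusted p = 0.0555).

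Spi1 had 5.77, 1.66 and 5.24 CPM in treated deficient CD8 cells, against the 16.3 to 38.7 CPM of the deficient group (-2.38 ± 0.60, adjusted p = 0.0173). The lowest treated library held 4 counts of Spi1. The call was lost without any of the 3 treated libraries or deficient CD8 replicate 3 (adjusted p 0.0571 to 0.0784), and with the marker terms the value was -0.54 (adjusted p = 0.543). Cux1 had 53.1, 52.1 and 50.5 CPM in treated deficient CD8 cells, against 95.8, 87.6 and 126 CPM in deficient CD8 cells (-0.99 ± 0.23, adjusted p = 0.00655). Its treated libraries lay close together and below every other CD8 library.

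Hif1a had 885, 1010 and 726 CPM in treated deficient CD8 cells, above all 6 other CD8 libraries (treated against deficient, 0.77 ± 0.14, adjusted p = 0.00107). Picalm had 772, 782 and 670 CPM in treated deficient CD8 cells, against the 553 to 582 CPM of the deficient group (0.39 ± 0.11, adjusted p = 0.0231). The Picalm call was lost without any of the 3 deficient CD8 libraries or treated deficient CD8 replicates 1 and 2 (adjusted p 0.0545 to 0.113). Ripk1 (0.37 ± 0.13, adjusted p = 0.0574) and Sla (0.34 ± 0.12, adjusted p = 0.0749) were higher in every treated than in every deficient CD8 library and were not called. Both passed without any of floxed CD8 replicates 1 and 2 and floxed CD4 replicate 3, which are no part of this comparison and enter it through the shared fit (adjusted p 0.0168 to 0.0491).

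In CD4 cells 0 members were called with the blockade by edgeR, where 0.0852% of tested genes were called higher and 0.0568% lower. At an unadjusted p under 0.05, 5 members were higher and 1 lower. DESeq2 called 1 higher, in a fit that called 0.627% of all tested genes higher and 0.508% lower. The member that DESeq2 called was Tab2, which had 210, 233 and 182 CPM in treated deficient CD4 cells, against 147, 149 and 128 CPM in deficient CD4 cells. The libraries did not overlap, and the value was 0.56 ± 0.12 (edgeR adjusted p = 0.0689, DESeq2 adjusted p = 0.00333). Without treated deficient CD4 replicate 3 edgeR's adjusted p was 0.0165. For the blockade effect in CD8 minus that in CD4 cells, edgeR called 0 members (0.575% of all tested genes higher and 0.227% lower), and 3 were higher and 3 lower at an unadjusted p under 0.05. DESeq2 and limma voom also called 0, while with no filter on low counts edgeR called 3 lower (1.58% of all tested genes).

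Which members stayed up after the blockade was read from treated deficient against floxed cells. This comparison and the deletion share the 3 floxed libraries of a cell type, so they are not independent. In CD8 cells 6 members were higher in treated deficient cells and 1 was lower (2.69% and 2.32% of all tested genes). Of the 9 members that rose with the deletion, 4 were called here too: Maf, Trp53inp1, Sdcbp and Picalm. Libraries did not overlap for 11 members that were higher (13.6%) and 2 that were lower (12.6%). Genes called higher in both comparisons made up 1.31% of all tested genes.

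Maf had 15.6, 17.4 and 18.6 CPM in treated deficient CD8 cells, against the 5.16 to 8.23 CPM of the floxed group (log2 fold change 1.23 ± 0.19, adjusted p = 0.0016). Trp53inp1 had 221, 220 and 293 CPM in treated deficient CD8 cells, against 71.2 to 126 CPM in the floxed group (1.23 ± 0.21, adjusted p = 0.00438). Sdcbp had 476, 453 and 468 CPM in treated deficient CD8 cells, against 222 to 265 CPM in the floxed group (0.93 ± 0.12, adjusted p = 0.000438). These 3 and Picalm (0.81 ± 0.11, adjusted p = 0.000502) had no overlap with floxed libraries. Picalm was the 1 of the 9 that rose with both the deletion and the blockade. The calls of Maf, Sdcbp and Picalm were kept in all 28 other settings, the marker terms included. That of Trp53inp1 was lost with those terms (0.65, adjusted p = 0.0748) and without the 3 libraries of high ribosomal-like share (1.39, adjusted p = 0.0651). The melanoma sums of treated deficient and floxed CD8 libraries did not overlap. The melanoma term and this comparison thus cannot be fully told apart.

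The other 5 of the 9 were not called in treated deficient against floxed CD8 cells. Bach1 had 0.49 ± 0.16 (adjusted p = 0.0757), with every treated library above every floxed one, and it passed with the marker terms (0.80, adjusted p = 0.0406). Cebpb had 0.15 ± 0.21, Ikbke 0.15 ± 0.18, Gna13 0.21 ± 0.12 and Zfp652 0.22 ± 0.20, with 95% intervals that reach from -0.28 to 0.58 for Cebpb and from -0.22 to 0.53 for Ikbke. Gna13 had 288, 289 and 267 CPM and Zfp652 had 55.6, 52.1 and 68.1 CPM in treated deficient CD8 cells, overlapping the floxed libraries. For Gna13 and Zfp652 the blockade effect itself did not pass either (-0.26 ± 0.12, adjusted p = 0.152, and -0.51 ± 0.20, adjusted p = 0.102).

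**Figure D4:**
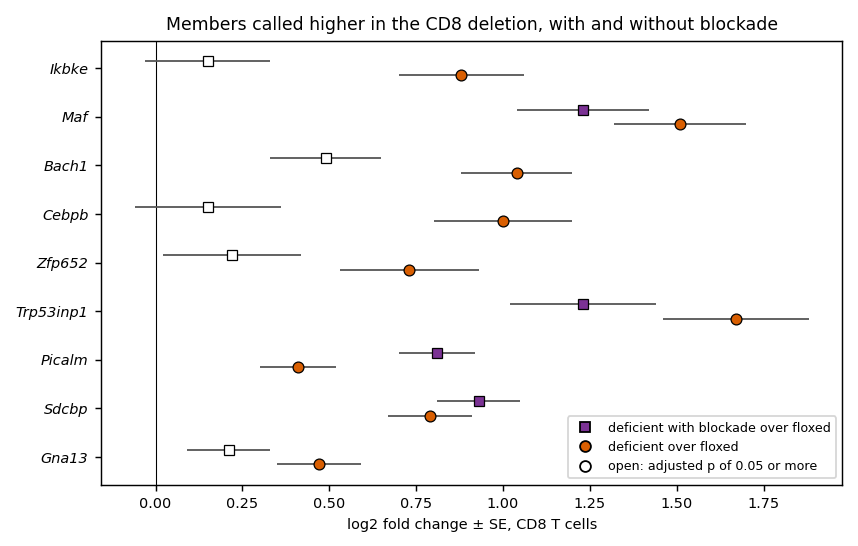
Log2 fold change (with SE) against floxed CD8 cells for the 9 members called higher in the CD8 deletion, with deficient cells under blockade as squares and deficient cells without it as circles; open symbols had an adjusted p of 0.05 or more. Maf, Trp53inp1, Picalm and Sdcbp keep filled squares, with Picalm and Sdcbp further right under blockade, and Ikbke and Cebpb have squares at 0.15.

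The other calls in treated deficient against floxed CD8 cells were of members that had not changed call with the deletion. Hif1a was higher (0.62 ± 0.14, adjusted p = 0.018). Tab2, with 195, 194 and 177 CPM in treated deficient cells against 153, 131 and 121 CPM in floxed CD8 cells, was higher too (0.49 ± 0.12, adjusted p = 0.0252). Cux1 was lower (-0.97 ± 0.23, adjusted p = 0.0213), with floxed libraries at 95.5, 65.5 and 145 CPM. The calls of Hif1a and Tab2 were lost without any of floxed CD8 replicate 3 and treated deficient CD8 replicates 1 and 2 (adjusted p 0.0537 to 0.110), and that of Cux1 without any of floxed CD8 replicates 1 and 3 and the 3 treated libraries (adjusted p 0.0594 to 0.0896). Without the 3 libraries of high ribosomal-like share 3 members were called higher and 0 lower, where 0.343% of all tested genes were called higher and 0.0549% lower.

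In CD4 cells 4 members were higher in treated deficient than in floxed cells and 6 were lower (4.08% and 8.08% of all tested genes). Hif1a, the 1 member that rose with the CD4 deletion, stayed up, with 2450, 2310 and 2270 CPM in treated deficient CD4 cells, against 1420, 1250 and 922 CPM in floxed CD4 cells (0.97 ± 0.14, adjusted p = 0.000141). Its levels ran in the order treated, deficient and floxed with no overlap between the 3 groups. Libraries did not overlap for 7 members in each direction (12.3% of tested genes higher and 15.4% lower). Genes called higher in both CD4 comparisons made up 1.45% of all tested genes. Sla (1100, 1030 and 1010 CPM in treated deficient CD4 cells against 695, 729 and 580 CPM in floxed CD4 cells; 0.65 ± 0.12, adjusted p = 0.0017) and Tab2 (210, 233 and 182 CPM against 133, 148 and 153 CPM in floxed CD4 cells; 0.52 ± 0.12, adjusted p = 0.00642) rose. Ets1 had 2050, 1750 and 1840 CPM in treated deficient CD4 cells, against 1270, 1470 and 764 CPM in floxed CD4 cells (0.68 ± 0.19, adjusted p = 0.0202), a call lost without floxed CD4 replicate 3 (adjusted p = 0.105) or treated deficient CD4 replicate 1 (adjusted p = 0.0862).

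Of the 6 members that fell with the CD4 deletion, 5 were also lower in treated deficient cells: Cebpb (-1.45 ± 0.19, adjusted p = 7.07e-05), Bach1 (-1.35 ± 0.15, adjusted p = 1.7e-05), Ptprj (-1.18 ± 0.20, adjusted p = 0.000543), Sdcbp (-0.93 ± 0.12, adjusted p = 5.73e-05) and Myd88 (-0.86 ± 0.20, adjusted p = 0.0077). How many of all tested genes were called lower in both CD4 comparisons was not computed. In treated deficient CD4 cells Bach1 had 66.2, 66.6 and 78.9 CPM and Cebpb 84.5, 112 and 127 CPM, below every floxed CD4 library. Sdcbp had 528, 581 and 670 CPM, Ptprj 104, 134 and 134 CPM and Myd88 77.7, 63.0 and 58.1 CPM in treated deficient CD4 cells. Maf, the other of the 6, had 263, 243 and 303 CPM in treated deficient CD4 cells and a value of -0.44 ± 0.16 (adjusted p = 0.0682). It passed with DESeq2 (adjusted p = 0.033) and limma voom (adjusted p = 0.0194). Spi1 had 22.7, 38.0 and 34.7 CPM in treated deficient CD4 cells and was called lower too (-2.22 ± 0.52, adjusted p = 0.0125).

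Spi1 lost that call without floxed CD4 replicate 3 (-1.90, adjusted p = 0.0725) or treated deficient CD4 replicate 1 (-2.03, adjusted p = 0.0728), and Myd88 without floxed CD4 replicate 3 (-0.65, adjusted p = 0.0698). With the marker terms edgeR called 0 of the 32 members in this CD4 comparison (3 higher and 6 lower at an unadjusted p under 0.05), and of all tested genes 0.0710% higher and 0.163% lower. There Ets1 (-0.35) and Spi1 (0.45) changed sign. The macrophage sums of these groups did not overlap, so the macrophage term and this comparison cannot be fully told apart. The T cell markers were higher in the same comparison, with 3 of 6 pan T genes called higher (median 0.55) and Cd4 at 1.33 ± 0.32 (adjusted p = 0.0138), and their part in the rises of Hif1a, Sla, Tab2 and Ets1 was not tested. Of the 15 macrophage genes, 14 were called lower in treated deficient against floxed CD4 cells. Their part in the falls of Spi1, Cebpb, Bach1, Sdcbp, Ptprj and Myd88 was not tested further.

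**Figure D5:**
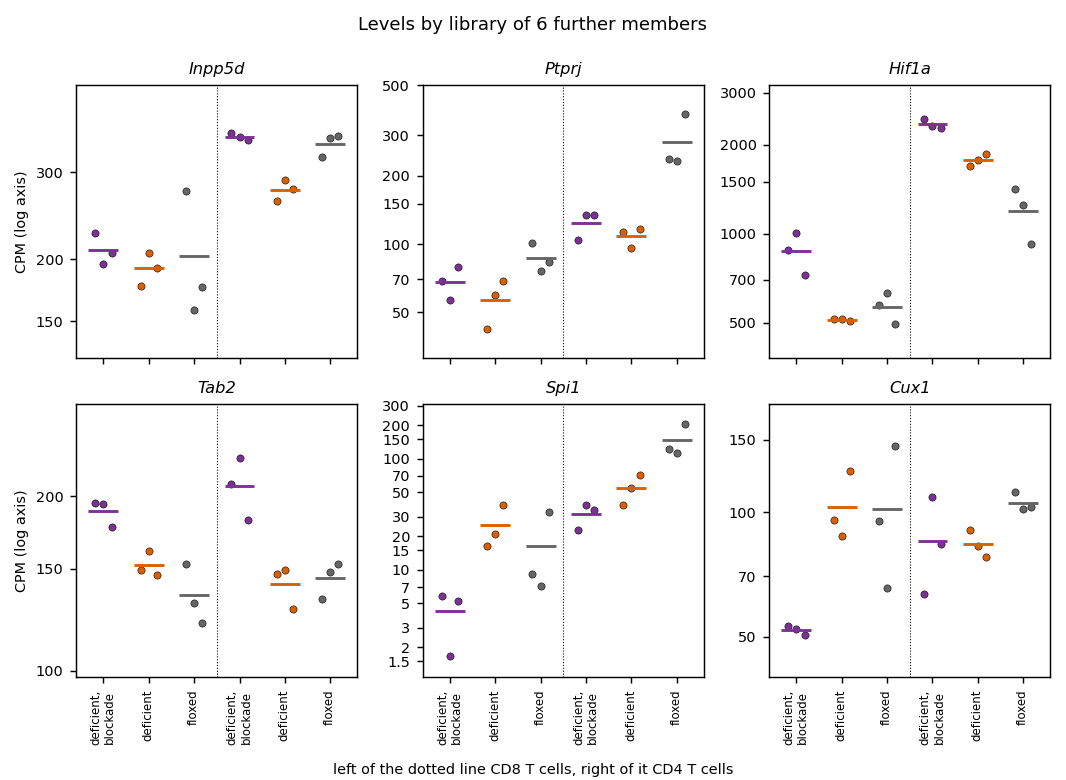
CPM (log axes, a scale of its own for each gene) of Inpp5d, Ptprj, Hif1a, Tab2, Spi1 and Cux1 in each of the 18 libraries, in CD8 and then in CD4 cells; points are libraries and bars are means. Hif1a is highest under blockade in both cell types (726 to 1010 CPM in CD8 and 2270 to 2450 CPM in CD4 cells), while Spi1 is highest in floxed CD4 libraries (112 to 205 CPM).

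Over the 6 comparisons within a cell type, 15 of the 32 members were never called. For all tested genes the share never called was not computed, so this count has no background to set it against. The 15 were Arl5b, Fadd, Fosl2, Inpp5d, Jarid2, Kpna1, Peli1, Phf19, Ptpn2, Rheb, Ripk1, Smad2, Tshz3, Tspan14 and Wee1. Their values ran from -0.53 to 0.39 on the log2 scale in the CD8 deletion and, Tshz3 included, from -0.31 to 1.03 in the CD4 deletion. For Jarid2, whose 3' UTR holds 2 matches of the 8mer, the 95% interval was -0.25 to 0.32 in CD8 and -0.23 to 0.34 in CD4 cells. That of Tspan14, also with 2 such matches, was -0.20 to 0.39 in CD8 and -0.30 to 0.28 in CD4 cells.

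Members were also set out by their best match. Over all tested genes 9.65% were called higher and 9.61% lower in the CD8 deletion, and 4.61% and 7.06% in the CD4 deletion. The same shares by best match were not computed for all tested genes. Of the 15 with an 8mer, 4 were called higher in the CD8 deletion and 0 lower, with a median of 0.15. Of the 12 with a 7mer at most, 3 were higher and 1 lower, with a median of 0.09, and of the 5 with no match, 2 were higher and 0 lower, with a median of 0. In the CD4 deletion the medians were -0.01, 0 and -0.12, the counts called higher were 0, 1 and 0, and those called lower were 2, 2 and 2. An 8mer was present in 4 of the 9 members called higher in the CD8 deletion (44.4%) and in 11 of the 22 not called (50.0%). The 2 members without a match that rose in CD8 cells were Maf and Gna13.

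Lists of related genes, chosen with earlier results known, place these values. Their counts stand beside 9.65% of all tested genes called higher and 9.61% lower in the CD8 deletion. For the CD4 deletion these shares were 4.61% and 7.06%, and for the CD8 blockade 8.25% and 5.53%. Of 22 tested genes in a list of 23 other reported targets, 7 rose and 4 fell in the CD8 deletion (median 0.06), and 3 rose and 3 fell in the CD4 deletion (median 0.22). Socs1, which blocks JAK kinases, had 1.01 ± 0.15 in the CD8 deletion (adjusted p = 0.000111) and 0.32 ± 0.15 in the CD4 deletion (adjusted p = 0.197). Ifngr1, which encodes a subunit of the receptor for interferon gamma, rose in both (1.08 ± 0.14, adjusted p = 2.23e-05, and 0.56 ± 0.13, adjusted p = 0.00881). The inhibitory receptor gene Ctla4 fell in the CD8 deletion (-1.30 ± 0.18, adjusted p = 5.11e-05).

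Among 13 partners of Bach, Maf and AP-1 factors, 4 rose and 1 fell in the CD8 deletion, and 0 rose and 4 fell in the CD4 deletion. Nfe2l2, the antioxidant factor NRF2 that competes with Bach1, rose in CD8 cells (1.36 ± 0.22, adjusted p = 0.000338) and had -0.25 ± 0.22 in CD4 cells. Fos rose in the CD8 deletion (0.83 ± 0.17, adjusted p = 0.00156) and fell in the CD4 deletion (-1.42 ± 0.17, adjusted p = 3.24e-05). Among 9 PRC2 partners, 1 rose and 3 fell in the CD8 deletion and 5 rose in the CD8 blockade. Ezh2, the methyltransferase of the complex, fell by 0.87 ± 0.19 in the CD8 deletion (adjusted p = 0.00282), and Phf1, a relative of Phf19, rose by 0.70 ± 0.20 (adjusted p = 0.0171).

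Around Rheb and Inpp5d, 0 of 10 PI3 kinase and mTORC1 partners rose and 1 fell in the CD8 deletion. The 1 was the kinase gene Akt1 (-0.51 ± 0.12, adjusted p = 0.00418). Of 15 partners of the innate and death receptor members, 1 rose (Ikbkg, 0.34 ± 0.12, adjusted p = 0.0442) and 1 fell (Traf2, -0.67 ± 0.14, adjusted p = 0.00246) in the CD8 deletion. Of 12 genes of the microRNA machinery, 0 rose and 2 fell in the CD8 deletion: Drosha, which cuts primary transcripts (-0.83 ± 0.22, adjusted p = 0.0107), and Ago2, which holds the guide strand (-1.20 ± 0.37, adjusted p = 0.037). The sum of this list was 1697, 907.7 and 970.8 CPM in floxed and 884.8 to 972.8 CPM in deficient CD8 libraries. Floxed CD8 replicate 1 thus stood apart, and its part in the 2 calls was not tested. Of 10 genes of G2 and mitosis, which Wee1 holds back, 10 fell in the CD8 deletion (median -0.87) and 9 rose in the CD8 blockade (median 0.83). Wee1 itself was called in neither, at -0.25 ± 0.28 and 0.37 ± 0.28.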

How the data were processed

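RNA-seq of sorted T cells was deposited as 1 table of raw counts per library. Per the file headers, the authors counted reads with featureCounts 1.5.1, strand option 2 (reverse stranded), on Ensembl release 87. The submitters' processing notes name GRCm38 as build and, with no versions, the tools STAR, DESeq2 and featureCounts. Strand-specific counting drops reads shared by genes of the same strand by default, and no header states otherwise. Symbols came from GENCODE M21 for 49326 of 49671 models.

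The deposited counts entered 1 fit of all 18 libraries in R 4.3.3 with edgeR 4.0.16 (TMM, filterByExpr, robust quasi-likelihood, 6 group means, 12 residual degrees of freedom, common biological coefficient of variation 0.229). A gene was called at a Benjamini-Hochberg adjusted p under 0.05 over 14080 genes, and SE and 95% intervals come from that fit. "Rose" and "fell" stand for calls. Two-sided tests were used throughout. The script was tested on simulated counts. Depths of 3.2 to 11.65 M counts per library set a floor of 3 counts, which covers counting error only. 0 pairs of libraries were identical.

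Members called in a deletion, blockade or treated comparison, and Inpp5d, are given by library; of each further list up to 4 genes with the smallest adjusted p in a deletion were open to naming, and 1 of these is not reported here. The members, lists and alternatives were chosen with earlier results of these data known. Alternatives were other scaling (RLE), filters, DESeq2 1.42.0, limma 3.58.1 voom, each cell type alone, the replicate number, marker sums as terms and each library left out. After the data were seen, 3 were added: leaving out the 3 libraries with over 4% ribosomal-like counts, leaving out the 2 CD8 libraries with the highest macrophage sums, and a block for the CD8 and CD4 pools of one group and number. Site searches used the longest 3' UTR of each gene, or any transcript.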

Additional observations from a re-analysis of the deposited data

Results flagged for a closer look

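For 8 members the deletion effect differed between CD8 and CD4 cells by the contrast of the 2 effects (edgeR's quasi-likelihood test, adjusted p under 0.05). The difference, CD8 minus CD4 on the log2 scale, was 2.10 for Cebpb, 2.06 for Maf, 2.03 for Bach1, 1.51 for Sdcbp, 1.21 for Ikbke, 1.16 for Trp53inp1, 0.50 for Picalm and -0.71 for Hif1a. In Cebpb, Maf, Bach1 and Sdcbp the effects in the 2 cell types were each called and had opposite signs. With the marker sums as terms, Maf and Trp53inp1 kept their call in this contrast, and Gna13 gained one (1.04, adjusted p = 0.0462). That fit called 0.717% of all tested genes higher and 0.234% lower. Trp53inp1 went from 1.67 to 1.52 in the CD8 deletion and from 0.51 to -0.85 in the CD4 deletion. Gna13 went from 0.47 to 0.65 and from 0.07 to -0.39. The marker terms and the CD4 deletion cannot be fully told apart, so these 2 results are uncertain. Over 28 settings the difference of Maf ran from 1.89 to 2.24 and was called in each. The Trp53inp1 difference was not called without the 3 libraries of high ribosomal-like share (adjusted p = 0.053).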

How the results depend on the processing

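Of 7165 member values recomputed under other settings, 6941 stayed on the same side of the threshold with no called change of sign. Another 127 lost a call, 94 gained one and 3 called values changed sign. Among the 6941 were 227 changes of sign between values called in neither fit. The 3 were Myd88 in the CD4 deletion (0.29) and, in treated deficient against floxed CD4 cells, Ets1 (-0.35) and Spi1 (0.45), all with the marker sums as terms. With those terms the members called higher and lower were 2 and 0 in the CD8 deletion, 0 and 0 in the CD4 deletion, 0 and 1 in the CD8 blockade, 0 lower in treated deficient against floxed CD8 cells, 0 and 0 in the same CD4 comparison, 3 and 0 for the difference of the deletion effect and 3 lower for that of the blockade effect. Of all tested genes that fit called 0.582% higher and 0.320% lower in the CD8 deletion, and 0.00710% and 0.0213% in the CD4 deletion. The CD8 blockade had 0.874% and 0.973%. Treated deficient against floxed cells had 0.803% and 0.312% in CD8 and 0.0710% and 0.163% in CD4 cells. The difference of the deletion effect had 0.717% and 0.234%, and that of the blockade effect 0.433% and 0.604%. With no filter on low counts they were 4 higher in the CD4 deletion, 1 higher with the blockade in CD8 cells, 1 and 1 with that in CD4 cells, 3 lower in treated deficient against floxed CD8 cells and 3 lower for the difference of the blockade effect; adjusted p-values of low genes such as Spi1 dropped steeply there, and the cause was not tested. DESeq2 called 1 higher in the CD4 blockade (0.627% of all tested genes) and 2 lower in treated deficient against floxed CD8 cells (5.55%). Limma voom called 2 lower in the CD8 deletion (9.74%). Each cell type fitted alone gave 2 higher in the CD4 deletion (3.91%) and 0 lower in treated deficient against floxed CD8 cells (1.13%). Without the 3 libraries of high ribosomal-like share there were 0 lower in the CD8 deletion, 2 higher in the CD4 deletion, 1 higher in the CD8 blockade, 3 higher and 0 lower in treated deficient against floxed CD8 cells and 0 lower for the difference of the deletion effect. Without the 2 CD8 libraries of highest macrophage sum 0 were lower in treated deficient against floxed CD8 cells. Shares of all tested genes are not given beside the counts with libraries left out. The cause was not tested for any of these changes in count. RLE scaling and the stricter filter kept every count of members called within 1.5 times. The share of members with a site was 84.4%, and 46.9% with the 8mer alone.

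The replicate numbers are shared by all groups, but same-numbered libraries did not deviate together in every pair of any comparison within a cell type (correlations from -0.182 to 0.184), so they were not taken as pairs. Between the CD8 and CD4 pools of 1 group the same-number correlations were 0.105, 0.103 and 0.289 in treated deficient, 0.164, 0.093 and 0.134 in deficient and 0.003, 0.028 and 0.088 in floxed pools. The highest with another number were 0.048, 0.016 and -0.098 in treated deficient and -0.053, -0.027 and -0.034 in deficient pools. In floxed pools they were 0.068, 0.025 and -0.021. Same-numbered pools thus agreed best except in floxed replicate 1. The contrasts between cell types treated these pools as independent. With the CD8 and CD4 pools of one group and number as a block, an alternative chosen after seeing the data, 8 members were higher and 1 lower for the difference of the deletion effect, the 8 calls were kept and Spi1 gained one (2.25, adjusted p = 0.00225), and 0 were called for that of the blockade effect. Shares of all tested genes are not given beside these counts. With the replicate block 3 members were higher in the CD4 deletion (4.91% of all tested genes) and 1 in the CD4 blockade (0.298%). In treated deficient against floxed CD8 cells 2 were lower with that block (2.41%).

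With each library left out in turn, members called higher and lower ran from 8 to 12 and 0 to 1 in the CD8 deletion, 0 to 2 and 4 to 7 in the CD4 deletion, 1 to 5 and 2 to 7 with the blockade of CD8 cells, 0 to 1 and 0 to 0 with that of CD4 cells, 4 to 7 and 0 to 3 in treated deficient against floxed CD8 cells, and 3 to 4 and 4 to 7 in the same CD4 comparison. For the difference of the deletion effect they ran from 6 to 11 and 0 to 1, and for that of the blockade effect from 0 to 0 and 0 to 1. Shares of all tested genes are not given beside these ranges. Tshz3 had at most 48 counts in any library, and changes of several-fold in it were not detectable.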
